A study of Drosophila melanogaster with 73 samples.

Results

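Transcripts of 10 eggshell genes were followed in 73 RNA-seq libraries of Drosophila melanogaster abdominal fat body. The genes were taken by name from the deposited table of 23932 genes: the 4 vitelline membrane genes Vm26Aa, Vm26Ab, Vm32E and Vm34Ca, and the 6 chorion genes Cp15, Cp16, Cp18, Cp19, Cp36 and Cp38. The study asked how the circadian transcriptome of the fat body changes after a drop in temperature. All flies were females of Iso31, a w1118 strain made isogenic, which had been kept with males and then entrained at 25°C in 12 h of light and 12 h of darkness. One set was moved to 18°C at the age of 7 days and the other stayed at 25°C. Each library pooled the tissue of several flies, and is known by its temperature, its replicate number, its day counted from the shift, and its ZT, the number of hours since the lights came on. There were 26 libraries of 25°C days 4-5, 24 of 18°C days 4-5, 18 of 18°C days 1-2 and 5 of 25°C days 1-2. All libraries of days 1-2 belonged to replicate 1, and the library of 18°C day 1 ZT00 was taken at the time of the shift. Ovaries, intestine and Malpighian tubules were removed by dissection, and the fat tissue that stays attached to the epidermis was collected.

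The insect eggshell is made by the follicle cells, the somatic epithelium around each growing oocyte in the ovary. Follicle cells first secrete the vitelline membrane, the inner layer next to the oocyte, and then switch to the chorion, the outer layer. Chorion genes lie in clusters that are amplified in follicle cells before they are transcribed, and the X-linked cluster is expressed earlier than most genes of the cluster on chromosome 3. The fat body itself makes yolk proteins, lipid carriers and storage proteins.

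Vm26Aa, Vm26Ab, Vm32E and Vm34Ca each encode a small structural protein of the vitelline membrane. In the BDGP6.54 annotation (Ensembl) they lie on chromosome arm 2L as genes of 1 exon each. Vm26Ab (FBgn0003980, 5957004 to 5957639, plus strand) and Vm26Aa (FBgn0003979, 5959596 to 5960340, minus strand) are neighbours with 1956 bp between them. Vm32E (FBgn0014076, 11171167 to 11171665, minus strand) lies within the span of Ca-beta without sharing exon sequence with it. Vm34Ca (FBgn0003983) spans 13411141 to 13411631 on the minus strand. The chorion proteins come from 2 clusters of genes with 2 exons each, all on the plus strand. Cp36 (FBgn0000359, 8479319 to 8480523) and Cp38 (FBgn0000360, 8481837 to 8483311) lie 1313 bp apart on X, within the span of CG33223 and outside its exons. Cp18 (FBgn0000357, 8726791 to 8727613), Cp15 (FBgn0000355, 8728481 to 8729066), Cp19 (FBgn0000358, 8729865 to 8730604) and Cp16 (FBgn0000356, 8731944 to 8732599) follow each other on 3L with gaps of 867, 798 and 1339 bp.

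Genes of a list drawn up for fat body were abundant as a sum in every library, though not each on its own. The list includes the yolk protein genes Yp1, Yp2 and Yp3, and whether all of its transcripts came from fat body was not tested. Levels are given as TPM, the share of a transcript scaled to the same total in each library. The summed level of 9 fat body genes (apolpp, Mtp, FASN1, Yp1, Yp2, Yp3, Lsp2, mag and bmm) ranged from 21078 to 55414 TPM in all 73 libraries. Among them Lsp2 ranged from 0.550 to 109 TPM. Other tissues were also measurable, with summed levels of 1818 to 6801 TPM for 7 muscle genes, 0.820 to 11407 TPM for 10 gut genes and 34.5 to 1305 TPM for 10 female germline genes. Between 11465 and 12810 genes were above 0 in a library. TPM keeps no sequencing depth, and although the study's methods state the same nominal number of read pairs for every library, the reads counted per library are unknown and no counting interval is given. The lowest value of 6 housekeeping genes in any library was 248 TPM, so a listed 0 of an eggshell gene did not come from a library that failed as a whole. In tissue pools such as these, fewer cells of a type and less RNA per cell cannot be told apart.

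All 10 genes were near 0 in most libraries and very high in a few. A library had at least 1 of the genes at 100 TPM or more in 28 of 73 cases (38.4%), and at least 1 gene at 1000 TPM or more in 12. In 12 other libraries all 10 genes were below 1 TPM, and in 3 of them, all of 25°C days 4-5, every gene was listed at 0. The vitelline membrane genes reached 100 TPM in 21 libraries, the chorion genes in 11, and both layers in 4. Together the 10 genes took between 0% and 1.3% of all transcripts of a library, with a median of 0.00874%. The highest share was in 18°C day 5 ZT00 of replicate 1, where Vm34Ca alone, at 4920 TPM, was the 10th most abundant transcript of the library. The map of all values shows these high libraries as isolated dark columns.

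**Figure D1:**
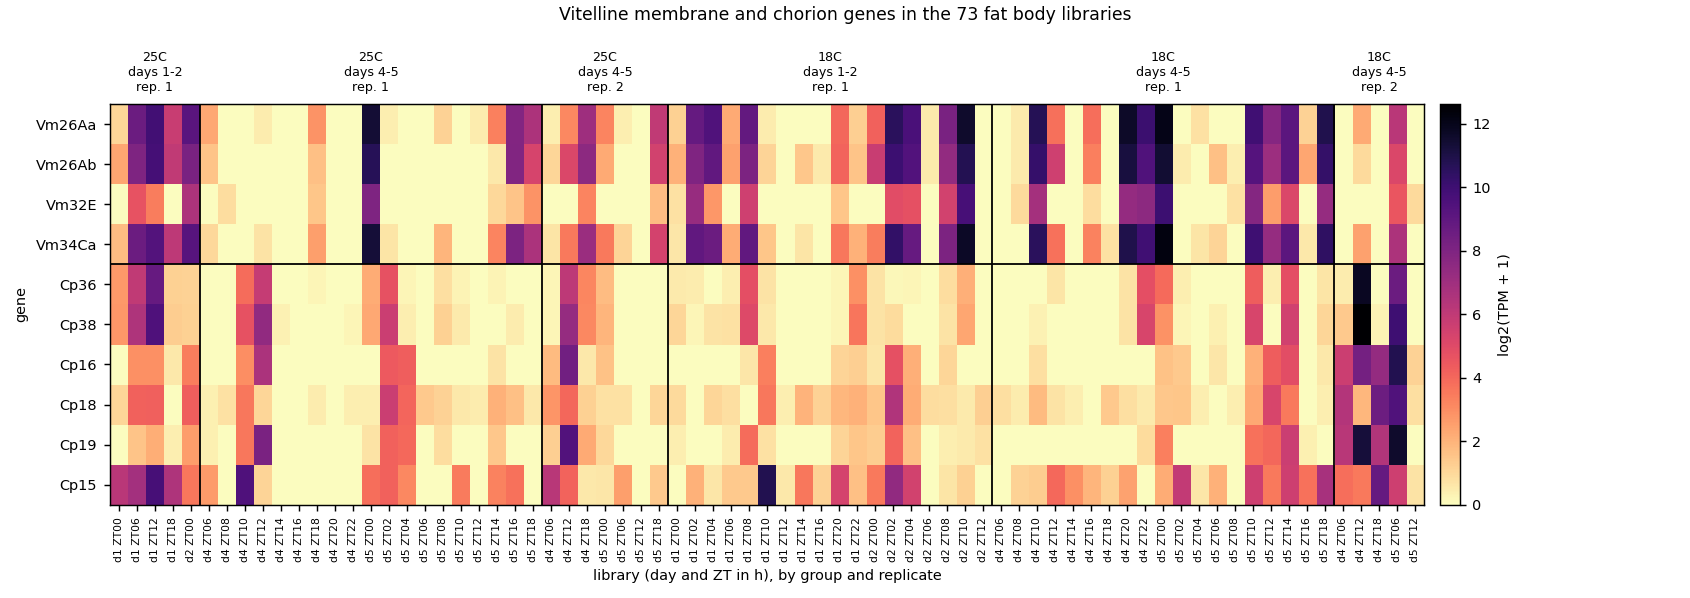
Level of each gene (rows) in each of the 73 libraries (columns, ordered by group, replicate, day and ZT), as log2(TPM + 1) on a colour scale that starts at 0. The vitelline membrane genes are above the horizontal line and the chorion genes below it. Dark columns of vitelline membrane genes reach 4304 TPM for Vm26Aa in 18°C day 5 ZT00, and the darkest chorion column, 18°C day 4 ZT12 of replicate 2, reaches 6324 TPM for Cp38.

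The high state often did not carry over from a library to the next in time. Successive libraries of a series were taken 2 h apart from different flies, and 52 such pairs were available. Vm26Aa stood at 4304 TPM in 18°C day 5 ZT00 and at 0 in the library taken 2 h later, and Vm34Ca fell from 4920 TPM to 0 between the same libraries. Cp15 stood at 1806 TPM in 18°C day 1 ZT10 and at 0.480 TPM 2 h later. The mean absolute log2 difference between such neighbours was 4.00 for Vm26Aa, 3.98 for Vm34Ca, 3.69 for Vm26Ab, 2.74 for Vm32E and 2.55 for Cp15. Among the other chorion genes it lay between 1.12 (Cp16) and 1.67 (Cp38). The median over the tested genes was 0.30.

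Replicates taken at the same temperature, day and ZT also differed widely. In 25°C day 5 ZT00 the vitelline membrane gene Vm26Aa was at 2632 TPM in replicate 1 and at 8.51 TPM in replicate 2. In 18°C day 4 ZT12 Cp38 was listed at 0 in replicate 1 and at 6324 TPM in replicate 2. Over the 12 such pairs the mean absolute log2 difference ran from 1.42 (Vm32E) to 3.68 (Cp19), beside a median of 0.33 over the tested genes. The vitelline membrane genes differed less between replicates than between neighbours 2 h apart (Vm26Aa 2.82 against 4.00). The chorion genes differed more (Cp16 3.37 against 1.12, Cp15 2.72 against 2.55). Within a group, the SD of log2(TPM + 1) of every one of the 10 genes was above that of 95.9% of the tested genes or more, in each of the 3 larger groups.

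Among the vitelline membrane genes, Vm26Aa, Vm26Ab and Vm34Ca rose and fell as a unit. In the 21 libraries with Vm26Aa at 100 TPM or more, Vm34Ca stood at 0.536 to 1.16 times the level of Vm26Aa (median 0.964) and Vm26Ab at 0.514 to 1.46 times (median 0.655). Vm32E was lower and did not keep a fixed ratio. It stood at 0.00807 to 0.326 times the level of Vm26Aa, a range of 40.4-fold. In 18°C day 1 ZT02 Vm32E reached 146 TPM beside 449 TPM of Vm26Aa, and in the next library, 18°C day 1 ZT04, it reached 5.66 TPM beside 702 TPM of Vm26Aa.

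Across the 73 libraries Vm26Aa and Vm34Ca had a Pearson r of 0.995 and a Spearman rho of 0.959 on the log2(TPM + 1) scale (permutation tests, adjusted p = 3.06e-05 and 2.5e-05 over 55 relations, from the smallest p the permutations can give). Without the 2 libraries farthest from the median of Vm26Aa, r was 0.994. The r between these genes was 0.992 within 25°C days 4-5, 0.993 within 18°C days 1-2 and 0.996 within 18°C days 4-5. The lowest r among the 4 vitelline membrane genes was 0.877, between Vm26Ab and Vm32E. Each of these values treats a library as 1 point, and TPM of a library share 1 total.

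Cp36 and Cp38, the X-linked pair that forms early chorion, also moved together. Cp36 reached 3597 TPM and Cp38 6324 TPM in 18°C day 4 ZT12 of replicate 2. The next highest values of the pair were 424 and 711 TPM in 25°C day 1 ZT12, and 393 and 1000 TPM in 18°C day 5 ZT06 of replicate 2. In the 14 libraries where the ratio was taken, with at least 10 TPM in either gene, Cp38 stood at 0.440 to 2.95 times the level of Cp36 (median 1.73). The r of the pair was 0.992 and the rho 0.882 (permutation tests, adjusted p = 3.06e-05 and 2.5e-05), and r was 0.988 without the 2 farthest libraries. Cp36 was below 1 TPM in 52 of 73 libraries.

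The 4 genes of the 3L cluster did not keep fixed ratios to each other. Cp16 and Cp19 were the closest, with r = 0.945 and rho = 0.828. Cp19 peaked at 3074 TPM and Cp16 at 1816 TPM in the same library, 18°C day 5 ZT06 of replicate 2, where Cp18 had its highest value too, 689 TPM. In 18°C day 4 ZT12 of replicate 2 the order was different, with Cp19 at 2470 TPM, Cp16 at 316 TPM and Cp18 at 2.72 TPM. The ratio of Cp18 to Cp16 spanned 0.00861 to 3.42 over 16 libraries, a 397-fold range, although these genes lie within the same cluster.

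Cp15, a gene that follicle cells transcribe late in chorion formation, was often high on its own. It reached 100 TPM in 7 libraries, and in 5 of them no other chorion gene did. In 18°C day 1 ZT10 Cp15 stood at 1806 TPM beside 9.57 TPM of Cp16, 10.9 TPM of Cp18 and 0.720 TPM of Cp19. In 25°C day 4 ZT10 it stood at 713 TPM beside 6.92 TPM of Cp16. The reverse also occurred: in 25°C day 4 ZT12 of replicate 1 Cp15 was at 1.16 TPM beside 279 TPM of Cp19. In 18°C day 4 ZT18 of replicate 2 Cp15 (450 TPM) and Cp18 (379 TPM) were high while Cp36 was listed at 0. The lowest r within the 3L cluster was that of Cp15 with Cp19, at 0.352 (rho 0.486, permutation tests, adjusted p = 0.00647 and 2.5e-05).

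**Figure D2:**
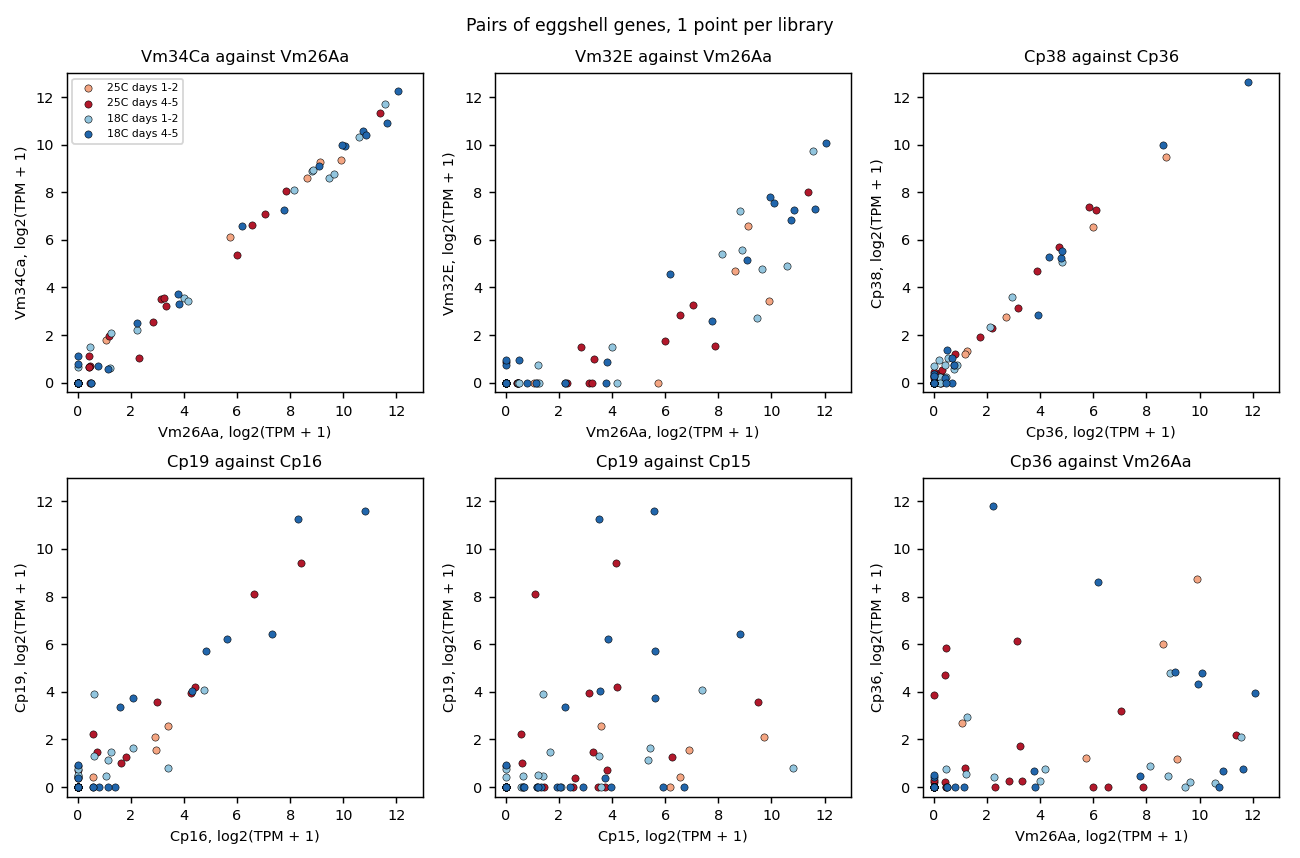
Level of 1 gene against another in each library, both as log2(TPM + 1), coloured by group. Vm34Ca follows Vm26Aa (r = 0.995) and Cp38 follows Cp36 (r = 0.992) along narrow bands, Vm32E scatters below Vm26Aa, and Cp19 against Cp15 (r = 0.352) and Cp36 against Vm26Aa (r = 0.298) spread over the panel.

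Over the 73 libraries, every Pearson r between a vitelline membrane gene and a chorion gene was lower than the lowest r within either layer, 0.332. By rho this did not hold, with 0.550 for Vm34Ca and Cp36 and 0.395 for Cp18 and Cp38. Nor did it hold by r within 18°C days 1-2, with 0.45 for Vm34Ca and Cp19 and -0.10 for Cp15 and Cp36. Vitelline membrane genes were at 100 TPM or more in 21 of the 73 libraries (28.8%). They were at that level in 4 of the 11 libraries with chorion genes at 100 TPM or more, no lower a share. Between the 4 vitelline membrane genes and the 4 genes of the 3L cluster, r ranged from 0.0359 to 0.254 and rho from 0.0923 to 0.369 over 16 pairs. The highest rho was that of Vm26Ab with Cp15 (0.369, permutation test, adjusted p = 0.00251). Between the vitelline membrane genes and the X-linked pair, r ranged from 0.235 to 0.324 and rho from 0.295 to 0.550 over 8 pairs. The X-linked pair and the 3L genes were closer, with r from 0.332 (Cp15 and Cp36) to 0.761 (Cp19 and Cp38). Cp36 was at 100 TPM or more in 3 libraries, and vitelline membrane genes were at that level in 1 of these, 25°C day 1 ZT12, where Vm26Aa was at 960 TPM, Cp36 at 424 TPM and Cp15 at 853 TPM.

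Other genes of egg formation moved with the vitelline membrane. The 10 genes outside the 10 described here whose level was most like the mean of the 4 vitelline membrane genes were dec-1 (rho 0.872 over 73 libraries), psd (0.867), Vml (0.819), CG13992 (0.808), ndl (0.805), CG12398 (0.795), wbl (0.742), Cyp6a19 (0.703), Tmhs (0.695) and St4 (0.683). The median rho over 9506 genes was 0.10. dec-1, psd and Vml encode eggshell proteins, and ndl encodes a protease that follicle cells secrete and that acts in the dorsoventral patterning of the embryo. psd, for example, had a median of 0.310 TPM and a maximum of 204 TPM. For the mean of the 6 chorion genes the leading genes were CG4009 (0.713), Femcoat (0.660), Cp7Fc (0.624), CG32642 (0.594), CG14834 (0.593), CG13083 (0.585), CG15570 (0.578), CG15571 (0.576), CG31926 (0.564) and Cyp6a19 (0.542), beside a median of 0.02 over all genes. Femcoat and Cp7Fc are chorion genes as well.

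Not every eggshell or follicle cell gene followed the vitelline membrane mean. Of the other eggshell genes, Femcoat had a rho of 0.08 with this mean and yellow-g 0.04. Of the follicle cell genes, tj had 0.48, Cad74A 0.28 and tsl -0.02. tsl, which a small group of follicle cells at the egg poles expresses, was present in all libraries at 28.1 to 249 TPM. It was at 124 TPM in 25°C day 4 ZT16, where all 10 eggshell genes were listed at 0, and the source of its transcripts was not tested. The 10 female germline genes had a rho of 0.29 (grk) to 0.68 (nos) with the vitelline membrane mean. The summed level of the 10 female germline genes (vas, nos, osk, bcd, grk, exu, aub, otu, bru1 and yl) had an r of 0.565 and a rho of 0.567 with Vm26Aa (permutation tests, adjusted p = 3.06e-05 and 2.5e-05) and an r of 0.499 without the 2 farthest libraries. Among the chorion genes its r ranged from 0.0788 with Cp18 (permutation test, adjusted p = 0.548) to 0.344 with Cp15 (adjusted p = 0.00692), and it was 0.299 with Cp36 (adjusted p = 0.0188) and 0.269 with Cp38 (adjusted p = 0.0352). The germline sum was 1107 TPM in 18°C day 5 ZT00, the library with the highest vitelline membrane level, and 119 TPM in 18°C day 2 ZT10, where Vm26Aa stood at 3003 TPM. It was 1275 TPM in 18°C day 2 ZT08, where Vm26Aa stood at 281 TPM. The part of ovarian tissue in the levels of the eggshell genes was not tested.

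On days 4-5, the settled period, the vitelline membrane genes were higher on average at 18°C than at 25°C, and no chorion gene differed by the test. Vm32E ranged from 0 to 255 TPM in the 26 libraries at 25°C (median 0, 18 at 0) and from 0 to 1066 TPM in the 24 at 18°C (median 0.760, 11 at 0). Vm26Ab ranged from 0 to 1661 TPM at 25°C (median 0) and from 0 to 2713 TPM at 18°C (median 3.15). The groups overlapped for every gene, and the highest value was at 18°C for all but Cp15, which reached 713 TPM at 25°C and 450 TPM at 18°C. Cp38 reached 168 TPM at 25°C and 6324 TPM at 18°C. Vm32E was at 100 TPM or more in 1 library at 25°C and 6 at 18°C, and the vitelline membrane genes as a set in 3 of 26 libraries (11.5%) at 25°C and 8 of 24 (33.3%) at 18°C.

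Of the 10 genes, 2 passed the test between temperatures on days 4-5, both higher at 18°C. Among all tested genes 46.5% passed, 32.4% as higher at 18°C and 14% as lower, so that 2 of 10 is below the share among all genes. Vm32E differed by 1.91 ± 0.70 (log2(TPM + 1), SE, limma adjusted p = 0.0231) and Vm26Ab by 2.34 ± 0.99 (limma adjusted p = 0.0468). Vm26Aa, at 2.14 ± 1.03, and Vm34Ca, at 2.08 ± 1.01, had limma adjusted p-values of 0.0826 and 0.0870. The 6 chorion genes had differences of 0.50 (Cp38) to 1.1 (Cp15), with limma adjusted p-values of 0.175 to 0.640. The median of the 10 differences was 0.95, and that of all tested genes was 0.09. Swapping temperature within the 24 pairs of libraries that share replicate number, day and ZT gave p = 0.00804 for Vm32E (permutation test, 2-sided, higher at 18°C in 13 pairs, lower in 3, equal in 8). It gave p = 0.0330 for Vm26Ab, 0.0472 for Vm26Aa and 0.0508 for Vm34Ca (permutation tests).

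The calls held to different degrees without single libraries, and the replicates differed in which genes were higher at 18°C. Vm32E passed in all 50 fits that left out 1 library. Vm26Ab passed in 22 of these 50, with adjusted p-values of 0.0193 to 0.0846 (limma), and without 25°C day 5 ZT00 of replicate 1 both Vm26Aa (adjusted p = 0.0383) and Vm34Ca (adjusted p = 0.0405) passed as well (limma). In the 38 libraries of replicate 1 the differences of the vitelline membrane genes were 2.18 (Vm32E) to 3.41 (Vm26Ab), and those of Cp16, Cp18, Cp19 and Cp38 were -0.27 (Cp19) to -0.09 (Cp38). In the 12 libraries of replicate 2 it was the other way round, with -1.46 (Vm26Ab), -0.75 (Vm34Ca) and -0.68 (Vm26Aa), 0.57 for Vm32E, and 2.10 (Cp36) to 4.77 (Cp19) for the chorion genes. None of the 10 passed in replicate 2 alone, and the difference between replicates was not tested. The highest chorion values came from replicate 2 at 18°C. Without the libraries of 18°C day 4 ZT12 and day 5 ZT06 of replicate 2 the differences of Cp19, Cp36 and Cp38 were -0.05, -0.17 and -0.32.

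Some genes of other lists also differed in this comparison. Of 17 other eggshell genes 13 were tested, and 5 were higher at 18°C and 0 lower, with a median difference of 0.82, beside the 32.4% of all tested genes that were higher at 18°C. dec-1 differed by 1.66 (limma adjusted p = 0.0277) and psd by 1.3 (limma adjusted p = 0.0438). Of the 10 female germline genes 6 were higher at 18°C and 0 lower, with a median of 0.86, and the germline sum had a median of 107.4 TPM at 18°C (38.7 to 1305) and 82.0 TPM at 25°C (34.5 to 327). Of the muscle genes 4 of 6 tested were lower at 18°C, as were 4 of 6 hemocyte genes and 2 of 4 oenocyte genes, beside 14% of all tested genes. Of 9 gut genes and 5 Malpighian tubule genes tested, 0 passed. Of 8 fat body genes tested 3 were higher and 1 lower, with a median difference of 0.14. Lsp2, from the fat body list, was higher by 2.42 (limma adjusted p = 4.89e-07). The part of any of these in the levels of the eggshell genes was not tested.

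**Figure D3:**
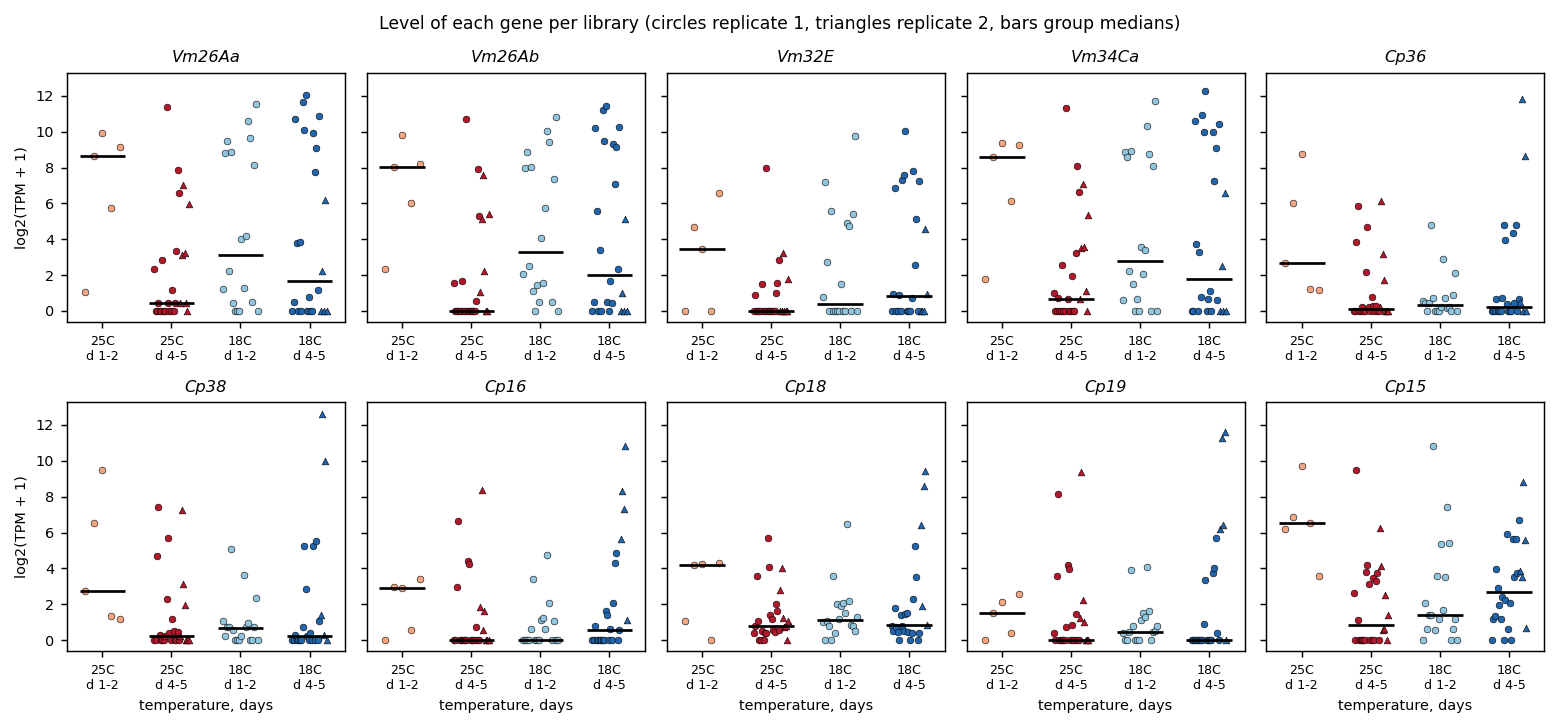
Level of each gene in each library as log2(TPM + 1), by temperature and period, with circles for replicate 1, triangles for replicate 2 and bars for group medians. The medians of 25°C days 4-5 lie at or below 0.850 TPM for all 10 genes, and the 5 libraries of 25°C days 1-2 have the highest medians.

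The 5 libraries of 25°C days 1-2 had higher medians than any other group for all 10 genes, but not every library or gene was high. At least 1 gene reached 100 TPM in 3 of the 5, and Cp16, Cp18 and Cp19 stayed at or below 9.70, 18.5 and 4.96 TPM. Cp15 stood at 72.0 TPM (day 1 ZT00), 117 TPM (day 1 ZT06), 853 TPM (day 1 ZT12), 92.7 TPM (day 1 ZT18) and 11.1 TPM (day 2 ZT00). In the 14 libraries of 25°C days 4-5 at the same ZTs it ranged from 0 to 75.2 TPM, with a median of 0.850. Of the 5 early libraries 3 lay above all 14 later ones, and the groups overlapped. Vm26Aa stood at 1.08, 395, 960, 52.0 and 562 TPM in the same 5 libraries in the same order. Its 14 later values had a median of 5.07 TPM and a maximum of 2632 TPM, above every early one.

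Of the 10 genes, 1 passed the test between periods at 25°C: Cp15 was higher on days 1-2 by 5.14 ± 1.01 (log2(TPM + 1), SE, limma adjusted p = 0.0117). Among all tested genes 4.33% passed, 1.58% as higher on days 1-2 and 2.75% as lower. The other genes had differences of -0.18 (Cp19) to 3.63 (Vm26Ab) and limma adjusted p-values of 0.156 to 0.955. The median of the 10 differences was 2.90, and that of all tested genes was -0.07. An exact permutation test of period within each ZT, added after seeing the data, was not adjusted over the 10 genes. The exact permutation test gave p = 0.00267 for Cp15, 0.0173 for Cp36, 0.0200 for Cp38 and 0.0280 for Cp18. For the other genes it gave p = 0.0627 (Vm26Ab) to 0.957 (Cp19), where 0.00133 is the smallest value that the 750 arrangements can give. Without 25°C day 1 ZT12, the library with the highest value, Cp15 no longer passed (difference 4.13, limma adjusted p = 0.0649), and without 25°C day 1 ZT18 Cp18 passed (limma adjusted p = 0.0457). The germline sum was 118 to 695 TPM in the early libraries. Lsp2, a storage protein gene of the fat body, was at 31.5 to 60.6 TPM in them and at 0.550 to 13.6 TPM in all 26 libraries of 25°C days 4-5. Of the 8 fat body genes tested, Lsp2 was the only 1 that passed between these periods. The part of germline genes or of Lsp2 in the levels of the eggshell genes was not tested.

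**Figure D4:**
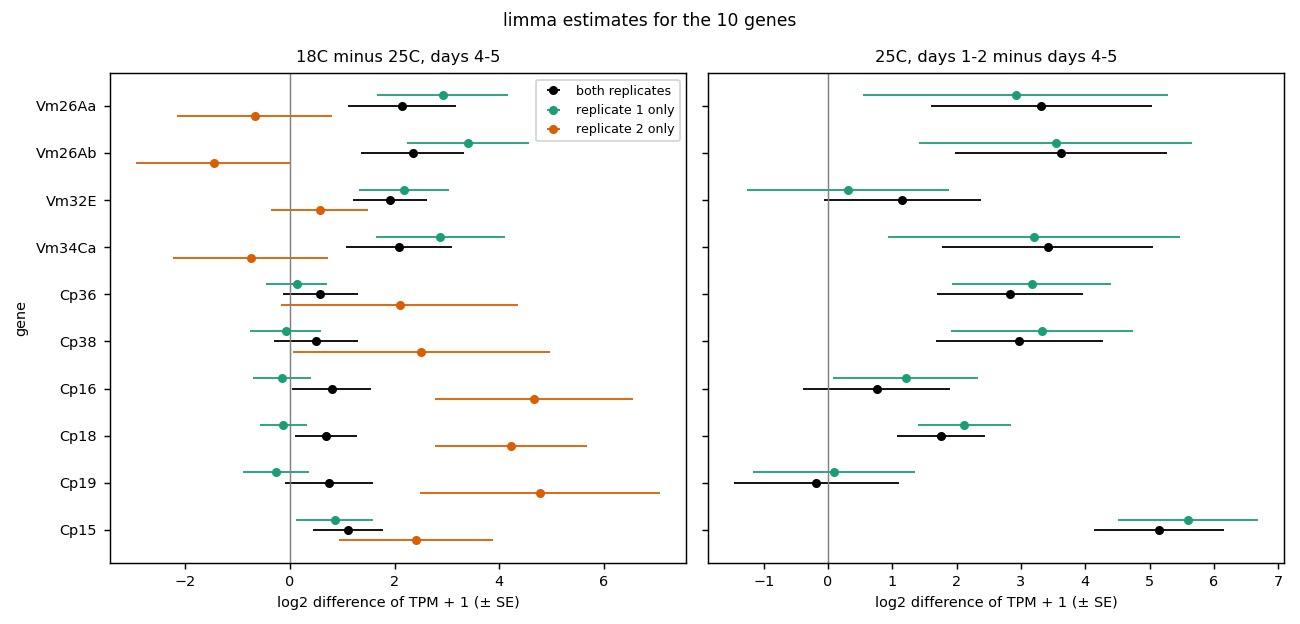
Difference of log2(TPM + 1) with its SE (limma) for each gene between temperatures on days 4-5 (left) and between periods at 25°C (right), with both replicates, with replicate 1 alone and, on the left, with replicate 2 alone. On the left the estimates of Vm26Aa, Vm26Ab and Vm34Ca are positive in replicate 1 and negative in replicate 2, and the chorion genes lie between -0.27 and 0.85 in replicate 1 and between 2.10 and 4.77 in replicate 2. On the right Cp15 has the highest estimate with both replicates, 5.14.

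At 3 time points after the shift, day 1 ZT06, day 1 ZT12 and day 2 ZT00, both temperatures were sampled on days 1-2. Vm34Ca stood at 387, 651 and 616 TPM at 25°C and at 3.63, 0 and 9.65 TPM at 18°C. Vm26Aa stood at 395, 960 and 562 TPM at 25°C and at 3.75, 0 and 17.04 TPM at 18°C. For all 10 genes the 3 values at 18°C lay below the 3 at 25°C, with differences of -1.5 (Cp19) to -7.20 (Vm34Ca) on the log2(TPM + 1) scale. No gene of the table passed this test (0 of 9422 tested, 0%), while 1083 had an unadjusted p under 0.05, all 10 eggshell genes among them, and the limma adjusted p-values of the 10 lay between 0.298 and 0.394. Between these time points the 18°C series had libraries with high values, such as 18°C day 1 ZT08 with 468 TPM of Vm26Aa.

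Whether the effect of temperature differed between periods was tested on 27 libraries at ZT00, ZT06 and ZT12. The effect of 18°C was more negative on days 1-2 than on days 4-5 for all 10 genes, and 2 passed: Vm34Ca at -9.23 ± 2.12 (log2(TPM + 1), SE, limma adjusted p = 0.0341) and Vm26Aa at -8.98 ± 2.19 (limma adjusted p = 0.0442). Among all tested genes 1.24% passed, 0.296% as more negative on days 1-2 and 0.94% as more positive. The other 8 genes had estimates of -3.55 (Cp19) to -8.15 (Vm26Ab) and limma adjusted p-values of 0.0605 to 0.608. This test uses the same 3 libraries of 25°C days 1-2, and Vm34Ca and Vm26Aa moved as a unit, so they are not separate results. Vm34Ca passed in 21 and Vm26Aa in 12 of 27 fits that left out 1 library, and neither passed without 25°C day 1 ZT06 (limma adjusted p = 0.121 and 0.142) or without 25°C day 1 ZT12 (limma adjusted p = 0.151 and 0.181).

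At 18°C the levels of days 1-2 and days 4-5 did not differ by the test. None of the 10 genes passed, while 24.5% of all tested genes did (5.72% as higher on days 1-2 and 18.8% as lower), and the limma adjusted p-values of the 10 lay between 0.252 and 0.926. Differences ranged from -1.35 (Cp19) to 0.37 (Vm26Ab), with standard errors of 0.73 to 1.44, and for each of the 4 vitelline membrane genes the SE exceeded the difference. The vitelline membrane genes were at 100 TPM or more in 7 of 18 libraries of days 1-2 and 8 of 24 of days 4-5.

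No daily rhythm was detected in any of the 10 genes. Harmonic regression with a 24 h period called 0 of 10 at 25°C on days 4-5 (3.44% of all tested genes), 0 of 10 at 18°C on days 4-5 (1.06%) and 0 of 10 at 18°C on days 1-2 (0.0106%), at adjusted p-values of at least 0.182, 0.525 and 0.724. At 25°C on days 4-5 the unadjusted p was under 0.05 for Vm26Aa, Vm26Ab and Vm34Ca (harmonic regression, adjusted p = 0.182, 0.245 and 0.200). These genes moved as a unit and are not separate results. At 18°C on days 1-2 the same held for Vm26Aa and Vm26Ab (harmonic regression, adjusted p = 0.724 and 0.725), and at 18°C on days 4-5 for none. The fitted amplitudes of the vitelline membrane genes were from 1.15 (Vm32E) to 2.27 (Vm26Aa) at 25°C on days 4-5, beside a median of 0.11 over all tested genes. Their SDs in that group were large too, from 1.74 (Vm32E) to 3.11 (Vm26Aa), beside a median of 0.24. A fitted amplitude grows with the SD even without a rhythm, so these amplitudes do not show one. A limma test of a rhythm that differs between temperatures called 0 of 10 (0.284% of all tested genes), with adjusted p-values of at least 0.455. The fitted peaks of the vitelline membrane genes at 25°C on days 4-5 lay between 20.2 h (Vm26Ab) and 21.3 h (Vm32E), and the 5 libraries of that group with Vm26Aa above 10 TPM were taken at ZT16, ZT18 or ZT00. At 18°C on days 4-5 Vm26Aa was above 1000 TPM in 5 libraries, at ZT10, ZT18, ZT20, ZT22 and ZT00. With the cut of 10 TPM used for 25°C, libraries at ZT06, ZT12, ZT14 and ZT16 were among them too. The fitted peak of Vm26Aa was 19.98 h at 18°C on days 4-5 and 4.41 h at 18°C on days 1-2. On days 1-2 at 18°C, Vm26Aa reached 100 TPM at ZT02, ZT04, ZT08 and ZT10. A shared time of high levels was thus not seen across the groups.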

How the data were processed

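Abdominal fat body RNA was profiled in 73 libraries, made non-stranded with the NEBNext Ultra II kit. The authors trimmed reads, used STAR 2.7.10a for alignment and RSEM for quantification on the Ensembl BDGP6 reference, and deposited TPM in a single table of 23932 genes. The study's methods describe TPM made before and after removal of duplicate reads, which lowers large values, and state that the paper used the latter throughout. The labels do not say so of the deposited table itself. Because each library has a fixed total, a rise in 1 abundant transcript lowers the TPM of the rest. All 73 columns matched a sample title and 0 were left unmapped. No 2 libraries were alike beyond a correlation of 0.976.

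TPM were used as log2(TPM + 1), which understates changes of low genes. Genes with a mean TPM of at least 1 over all libraries were tested (9506, all 10 eggshell genes among them); a gene without variation in a fit dropped out of it. A filter after that of the study (days 4-5, median TPM over 5 at 25°C or 18°C), applied to these libraries alone where the study also required it in a second experiment, keeps 7358 genes and 1 of the 10. Levels were compared with limma 3.58.1 (eBayes with trend, R 4.3.3) and a Benjamini-Hochberg threshold of 0.05 over all tested genes: between temperatures on days 4-5 (50 libraries, shared harmonic terms) and on days 1-2 (6 libraries, time point as a factor), between periods at 25°C (19 libraries) and 18°C (41 libraries), and for temperature by period (27 libraries). Rhythms were tested by harmonic regression (F-test of both terms) and differential rhythms with limma. Single differences were tested by 100000 random swaps of temperature within 24 pairs. The exact permutation test of periods at 25°C was added after seeing the data. Replicate numbers were not used as a block. P-values measure the spread between libraries, each a pool of flies.

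The text names all 10 genes, genes of fixed tissue lists, and the 10 genes with the highest Spearman rho to each layer's mean. The members and lists were chosen with earlier results of these data known. Positions are from Ensembl BDGP6.54. The tests were tried on simulated libraries with 200 changed genes (1.5 on the log2 scale). Of these, 96.5% were recovered between temperatures on days 4-5 and 0% between temperatures on days 1-2. The 200 were drawn at random from all tested genes, whose median SD on days 4-5 was 0.24 at 25°C and 0.33 at 18°C. The 10 eggshell genes had standard errors of 0.59 to 1.03 in that fit, so the 96.5% does not apply to them. Alternatives were other pseudocounts (0.1 and 5), filters, a rescaling by median-of-ratios factors, library weights, a replicate block, and leaving out replicates or libraries.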

Additional observations from a re-analysis of the deposited data

Results flagged for a closer look

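By limma's test of temperature by period, 2 of the 10 genes had a difference between 18°C and 25°C that was not the same in both periods. Among all tested genes 1.24% passed, 0.296% as more negative on days 1-2. The 2 genes moved as a unit and are not separate results. The estimate was -8.98 for Vm26Aa (adjusted p = 0.0442) and -9.23 for Vm34Ca (adjusted p = 0.0341) on the log2(TPM + 1) scale. In the fitted libraries Vm34Ca averaged 9.07 at 25°C and 1.12 at 18°C on days 1-2, and 2.19 at 25°C and 3.72 at 18°C on days 4-5. The 25°C side of days 1-2 rests on 3 libraries, and neither gene passed without 25°C day 1 ZT06 or without 25°C day 1 ZT12.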

How the results depend on the processing

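The count of the 10 genes that passed between temperatures on days 4-5, 2 in the reported fit, was 1 with no filter, rescaled TPM, no harmonic terms, or without the libraries of 18°C day 4 ZT12 and day 5 ZT06 of replicate 2 (chosen after seeing the data). It was 0 with the median TPM filter, which tests 1 of the 10, and 0 without replicate 1, and ranged from 1 to 4 when single libraries were left out (also chosen after seeing the data). With the replicate block it was 1, and with the 24 matched pairs as the block 1. For temperature by period, 2 in the reported fit, it was 0 with the median TPM filter and with no filter, 4 with rescaled TPM, 5 without replicate 2 and 3 with the replicate block, and ranged from 0 to 5 when single libraries were left out. At 25°C between periods it ranged from 0 to 2 (1 reported), and 1 with the replicate block. On days 1-2 it was 0 to 9 when single time points were left out, where 9 came without day 1 ZT12 and rests on 1 residual degree of freedom. The count of genes with p under 0.05 by pair swaps was 3, and 0 without replicate 1. That 0 was fixed in advance. Replicate 2 has 5 libraries at 18°C, too few pairs for the swaps to give a p under 0.05. The counts of 0 in the comparison of periods at 18°C and in the 4 rhythm tests did not change in any alternative. These included the replicate block, except for the rhythm test at 18°C on days 1-2, where all libraries were of replicate 1.

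Some differences reversed. Between temperatures on days 4-5, the values without replicate 1 and without replicate 2 were -0.68 and 2.92 (Vm26Aa), -1.46 and 3.41 (Vm26Ab), -0.75 and 2.87 (Vm34Ca), 4.66 and -0.15 (Cp16), 4.23 and -0.13 (Cp18), 4.77 and -0.27 (Cp19), 2.10 and 0.13 (Cp36), and 2.51 and -0.09 (Cp38). Without the 2 libraries named above they were -0.05 (Cp19), -0.17 (Cp36) and -0.32 (Cp38), and with library weights -0.010 (Cp18). Between periods at 25°C Cp19 was at 0.52 with a pseudocount of 0.1, 0.15 with the replicate block, 0.09 without replicate 2 and -0.58 to 0.46 when single libraries were left out. The cause was not tested.

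Same-numbered libraries of the 24 pairs did not deviate together (median r 0.03, 6 of 24 over 0.1), and the reported limma fits did not use the pairs. The swaps of temperature were made within these pairs, which rest on the labels alone. Over all genes, the block raised the calls between periods at 25°C from 409 to 1726 and for temperature by period from 117 to 207. Rescaling moved the share of calls higher at 18°C on days 4-5 from 69.8% to 55.6%, that of calls higher on days 1-2 from 36.4% to 53.2% at 25°C and from 23.4% to 51.4% at 18°C, and that of positive calls for temperature by period from 76.1% to 50.7%. It shifted the median of all genes by -0.22 on days 1-2 and -0.14 for temperature by period. The reads counted per library are unknown, so the counting error of low values could not be given.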
